A study of Mus musculus with 8 samples.

Results

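The Hoxc and Hoxd clusters are arrays of homeobox genes on mouse chromosomes 15 and 2, and their DNA methylation was described here in hematopoietic stem cells. CpG sites were taken from chr15:102915000-103045000 (Hoxc) and chr2:74660000-74770000 (Hoxd) in the mm10 build, with the 2 strands of a CpG added together. A CpG was kept when at least 3 mice of each group had 10 or more reads. This gave 1931 CpGs, 795 in Hoxc and 1136 in Hoxd, of 1278034 such CpGs on chromosomes 1 to 19.

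The cells were uncultured C57BL/6 bone marrow cells sorted as Lin-, c-Kit+, Sca-1+, Flk2-, CD48- and CD150+. The knockout group was 4 mice labelled Atg12fl/flMx1-cre, in which Cre is driven by the interferon-responsive Mx1 promoter and removes Atg12, a gene needed to form autophagosomes. The control group was 4 mice labelled WT, which the series' design text describes as carrying the floxed alleles without Cre, so whether the controls have loxP sites is not settled by the labels. All mice, controls included, were given poly(I:C) when 4 weeks old to switch on the Mx1 promoter, and were analysed 2 to 3 months after that. Each library came from an individual mouse. DNA methylation was read by enhanced reduced representation bisulfite sequencing (ERRBS), which sequences fragments from CpG-rich DNA after bisulfite has converted unmethylated cytosine, so that the methylation level of a CpG is the percentage of its reads that still show C. The tables hold no RNA and no test of the Atg12 deletion, and the methylation of marker genes identifies no cell type. The starts of Kit and Flt3, both markers of the sort, were at means of 0.146% and 0.201%, although the gate takes Kit-positive and Flk2 (Flt3)-negative cells. The start of Cd48, which the gate selects against, was at 16.4% over 3 CpGs, from 8.57% to 27.0% over the mice.

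Hox proteins are transcription factors that give cells their position along the body axis, and the order of the genes in a cluster follows the order of their expression along that axis. In blood stem cells the Hoxa and Hoxb clusters hold the genes that are mainly active, while Hoxc and Hoxd genes are largely silent. Silent Hox clusters are usually held by Polycomb proteins on CpG-dense DNA that carries little methylation, whereas CpG-poor DNA of the genome is mostly methylated.

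Promoters of Hoxd illustrate the DNA that was measured. Of 20 promoter entries of the clusters in the RefSeq table (GRCm38.p6), 14 belong to Hoxd, and all 257 CpGs listed within the 20 entries fell on a CG of the sequence. The 250 bases before the start are printed for 4 Hoxd genes whose starts differed in CpG density and in methylation, with every CG in capitals. Counted with the 50 bases after the start, Hoxd13 has 37 CGs, Hoxd10 22, Hoxd12 13 and Hoxd4 4, against a median of 7 over the 32851 promoters in the table.
Hoxd13, chr2:74667975-74668224, + strand: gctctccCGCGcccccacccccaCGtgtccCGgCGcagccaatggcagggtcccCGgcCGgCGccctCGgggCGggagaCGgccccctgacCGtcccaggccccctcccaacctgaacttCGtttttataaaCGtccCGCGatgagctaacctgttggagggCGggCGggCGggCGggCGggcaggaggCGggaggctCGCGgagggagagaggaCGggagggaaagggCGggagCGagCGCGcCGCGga
Hoxd12, chr2:74674763-74675012, + strand: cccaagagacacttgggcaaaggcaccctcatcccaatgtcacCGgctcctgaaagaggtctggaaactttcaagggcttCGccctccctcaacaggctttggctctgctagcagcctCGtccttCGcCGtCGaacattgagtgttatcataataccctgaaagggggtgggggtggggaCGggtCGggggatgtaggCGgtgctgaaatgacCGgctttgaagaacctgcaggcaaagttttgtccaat
Hoxd10, chr2:74691641-74691890, + strand: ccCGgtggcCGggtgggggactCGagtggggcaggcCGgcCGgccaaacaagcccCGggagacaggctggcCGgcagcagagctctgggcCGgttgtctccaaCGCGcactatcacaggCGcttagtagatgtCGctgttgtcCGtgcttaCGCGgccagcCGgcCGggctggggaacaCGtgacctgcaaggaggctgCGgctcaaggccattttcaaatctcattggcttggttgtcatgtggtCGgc
Hoxd4, chr2:74721728-74721977, + strand: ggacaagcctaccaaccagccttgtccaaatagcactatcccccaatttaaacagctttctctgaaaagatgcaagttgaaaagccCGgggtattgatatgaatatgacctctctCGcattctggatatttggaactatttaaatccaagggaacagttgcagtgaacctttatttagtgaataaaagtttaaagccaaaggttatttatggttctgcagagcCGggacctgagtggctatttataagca

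In these sequences the methylation of single CpGs did not follow one pattern. Positions are given in bases from the first transcribed base, which is base 0, and each level is the mean of the mice with 10 or more reads there, 6 to 8 of them. At Hoxd13, which patterns the tips of limbs and the genital tubercle, the 12 usable CpGs lay between 0 and 4.82%, and 5 of them were read without a methylated C in any mouse with data. The highest of them, at -196, was measured in 7 mice, of which 1 was at 33.8%. At Hoxd10, another posterior gene, CpGs from -248 to -195 were at 0 to 1.03%, 10 CpGs from -160 to -85 were at 3.26% to 9.47%, and those at -71 and -51 were at 0.0768% and 0.181%. The Hoxd10 promoter therefore held a short raised patch between flanks near 0. At Hoxd12, CpGs reached 14.0% at -170 and 16.4% at 10, while that at -70 was at 0. At Hoxd4, an anterior gene with a CpG-poor promoter, the levels were 20.7% at -164, 46.2% at -135, 4.53% at -27 and 3.13% at 0. Methylation at Hoxd4 was thus high upstream and low at the start itself.

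The clusters hold 3 microRNA genes. Their main mature products are printed as RNA with the seed, bases 2 to 8, in capitals, and the 3 seeds differ from one another.
mmu-miR-196a-5p, chr15:102973365-102973386, + strand: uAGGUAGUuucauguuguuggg
mmu-miR-615-3p, chr15:103014969-103014990, + strand: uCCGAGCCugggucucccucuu
mmu-miR-10b-5p, chr2:74726074-74726096, + strand: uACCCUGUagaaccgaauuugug

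Both clusters carried little methylation in every mouse. Each cluster mean weighs all CpGs equally. In Hoxc the knockout mice were at 5.23% (knockout 25), 5.28% (28), 5.69% (45) and 5.10% (46), and the control mice at 5.47% (control 1), 4.73% (34), 6.06% (36) and 5.76% (37). The means were 5.32% ± 0.255 in knockouts and 5.51% ± 0.569 in controls (SD, n = 4 each), which lie -0.182 percentage points apart (knockout minus control). In Hoxd the knockout mice were at 5.79%, 5.79%, 5.73% and 5.76% in the same order, and the control mice at 5.73%, 4.89%, 5.90% and 5.79%. The Hoxd means were 5.77% ± 0.0273 and 5.58% ± 0.465, a difference of 0.193 points. The groups overlapped in both clusters, and both differences were smaller than the spread among controls. Control 34 was the lowest mouse in Hoxc and in Hoxd, and without it the difference was -0.440 points in Hoxc and -0.0367 points in Hoxd.

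Hoxa and Hoxb were more methylated than Hoxc and Hoxd in all 8 mice. The Hoxa mean was 13.8% ± 1.75 in knockouts and 12.3% ± 1.76 in controls, and the Hoxb mean was 18.2% ± 1.45 and 17.8% ± 1.79. The lowest mouse was at 9.74% for Hoxa and at 15.1% for Hoxb, while the highest was at 6.06% for Hoxc and at 5.90% for Hoxd. All autosomal CpGs together were at 35.0% ± 0.221 and 34.9% ± 2.09. These means are descriptions and were not tested.

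Averaged over the mice, single CpGs of both clusters were mostly at low but nonzero levels. By this mean, 27.8% of Hoxc CpGs were under 1%, 318 of the 795 lay from 1 to 5%, 26.5% of CpGs from 5 to 20% and 5.66% from 20 to 80%. No Hoxc CpG reached 80%, and the highest was at 54.2%. In Hoxd the shares of these 4 classes were 33.8%, 40.1%, 21.1% and 4.14%, and 9 CpGs reached 80%. In all, 66.5% of Hoxc CpGs and 61.3% of Hoxd CpGs lay from 1 to 20%, against 25.3% in Hoxa, 30.6% in Hoxb and 13.9% of autosomal CpGs with 20 or more CpGs in the surrounding 500 bp. By the same mean over the mice, 55.2% of Hoxa and 45% of Hoxb CpGs were under 1%, and 71 and 101 CpGs were at 80% or more.

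**Figure D1:**
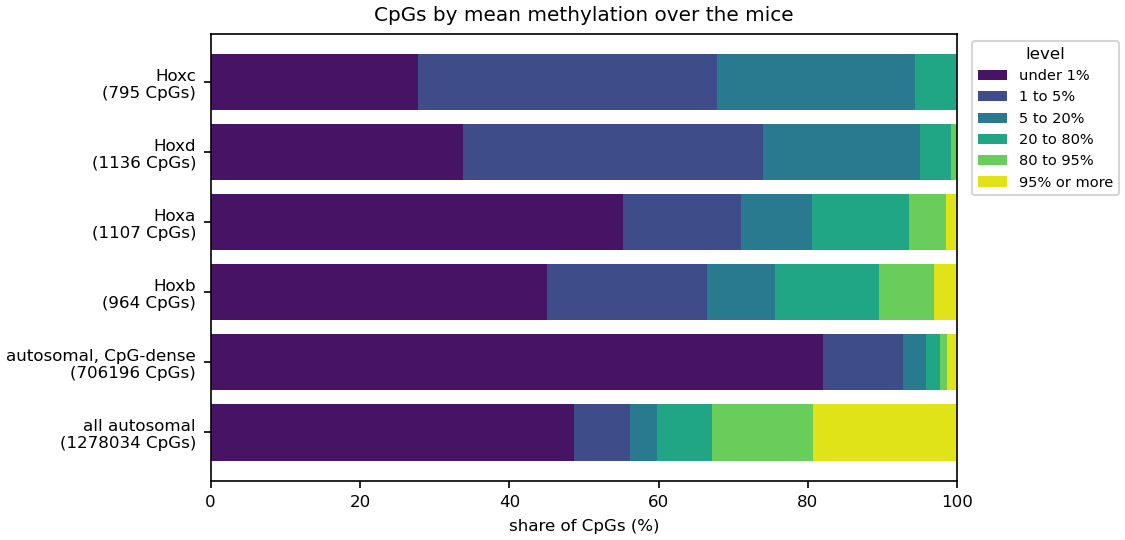
Share of CpGs (x axis, %) in 6 classes of methylation, by the mean over the mice, for the 4 Hox clusters, CpG-dense autosomal CpGs (20 or more CpGs in 500 bp) and all autosomal CpGs. The classes from 1 to 20% hold 66.5% of Hoxc and 61.3% of Hoxd CpGs, and CpGs at 80% or more are nearly missing from both clusters.

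In each single mouse a larger share of CpGs was under 1% than by the mean over the mice, but not always a majority. This share averaged 56.5% in Hoxc, from 43.7% to 73.5% over the mice, and 59.0% in Hoxd, from 47.6% to 73.3%. It averaged 65.6% in Hoxa and 58.8% in Hoxb, so Hoxb and Hoxd were close by this measure. The share from 1 to 20% was correspondingly smaller in single mice and varied. It ran from 16.4% in knockout 45 to 50.6% in knockout 25 for Hoxc and from 18.2% to 46.2% in the same mice for Hoxd. The corresponding range for CpG-dense autosomal CpGs was 3.99% to 12.1%, with the same mice at the ends. Among only the dense CpGs of the clusters, it ran from 16.1% to 50.6% in Hoxc and from 17.2% to 45.1% in Hoxd. Over all CpGs of a cluster, each mouse had a larger share in Hoxc and in Hoxd than over its own dense autosomal CpGs. The same held in each mouse for Hoxa, from 6.19% to 21.1%, and Hoxb, from 6.89% to 26.0%. By genotype the Hoxc share was 32.5% ± 14.9 in knockouts and 38.9% ± 4.91 in controls, and the Hoxd share 31.5% ± 12.4 and 36.6% ± 6.35, with overlapping groups.

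The mice also differed from one another at single CpGs. Among CpGs read in all 8 mice, 114 of 719 in Hoxc (15.9%) and 126 of 1062 in Hoxd (11.9%) were at 0 in one mouse and at 20% or more in another. Over all autosomal CpGs read in all mice this share was 4.18%, and in Hoxa and Hoxb it was 7.52% and 7.003%. These shares are not matched for the level of the CpGs. Among CpGs with a mean from 5 to 20%, the median SD over the mice was 7.42 points in Hoxc and 6.89 in Hoxd, against 7.79 in Hoxa, 7.62 in Hoxb and 8.49 over all autosomal CpGs, so within this range the median spread was not larger in Hoxc and Hoxd. Among CpGs with a mean from 1 to 5% it was 3.48 points in Hoxc and 3.46 in Hoxd, against 2.95 in Hoxa, 3.46 in Hoxb and 3.23 over all autosomal CpGs. Across CpGs, Pearson's r between 2 mice ran from 0.309 to 0.714 in Hoxc and from 0.662 to 0.881 in Hoxd over the 28 pairs, while it ran from 0.850 to 0.968 in Hoxa. By Spearman's rank correlation the ranges of Hoxc and Hoxd were close, at 0.290 to 0.574 and 0.323 to 0.542. In Hoxa the rank correlation ran from 0.593 to 0.753. CpGs of a cluster share fragments and libraries, so both correlations are descriptions. Reads carried no molecular identifiers, so a level may rest on fewer DNA molecules than reads.

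The levels of the 2 clusters lay furthest from those of the genome where CpGs are sparse. At CpGs with 1 to 9 CpGs in the surrounding 500 bp, autosomal methylation averaged 82.9% over the mice. The 52 such CpGs of Hoxc were at 12.1% ± 2.92 in knockouts and 15.1% ± 2.29 in controls, and the 45 of Hoxd at 29.2% ± 2.07 and 30.1% ± 2.46. At CpGs with 40 or more, the order turned: Hoxc was at 3.35% ± 0.370 and 3.14% ± 0.188, Hoxd at 2.40% ± 0.313 and 2.12% ± 0.179, and the autosomal CpGs at 1.08% ± 0.0358 and 1.07% ± 0.0725. In every mouse the dense CpGs of both clusters were above the autosomal value, the lowest being 2.99% in Hoxc and 1.95% in Hoxd against an autosomal maximum of 1.14%. Hoxa and Hoxb departed from the autosomal values in the same directions, at 34.95% and 49.5% over sparse CpGs and at 8.46% and 8.41% over CpGs with 40 or more, further above the dense autosomal value than Hoxc and Hoxd.

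**Figure D2:**
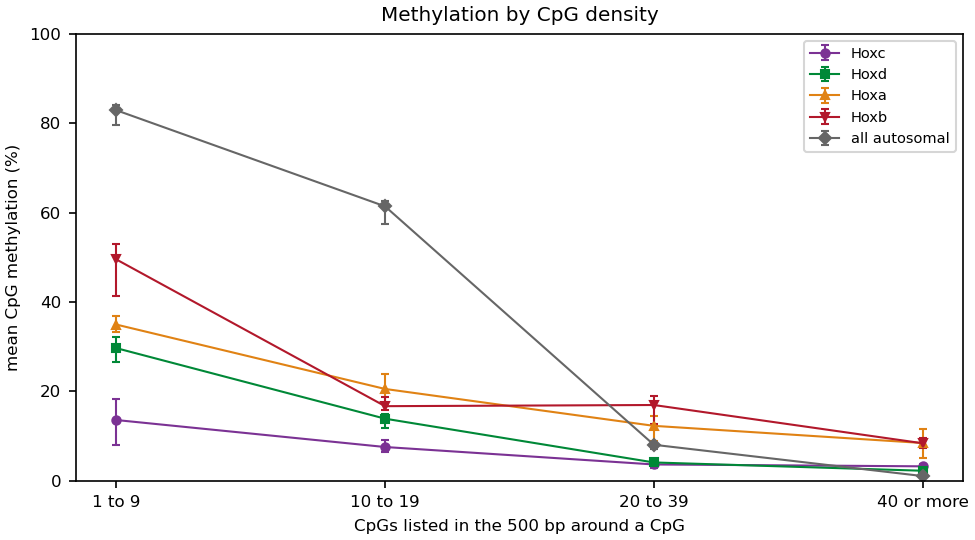
Mean CpG methylation (y axis, %) by the number of CpGs listed in the 500 bp around a CpG (x axis), with points at the mean of the 8 mice and bars from the lowest to the highest mouse. Sparse CpGs of Hoxc and Hoxd average 13.6% and 29.7% where the autosomal mean is 82.9%, and CpGs with 40 or more neighbours are at 3.25% and 2.26% where the autosomal mean is 1.07%.

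Many of the more methylated CpGs of Hoxd lay in one stretch. Of 56 Hoxd CpGs at 20% or more, 28 lay between 74720001 and 74730000 on chromosome 2, together with 8 of the 9 at 80% or more. These bounds were chosen after the levels were seen, and the other 28 CpGs at 20% or more lay outside them. The stretch runs from just before Hoxd4 to just past its end, lies within the long RefSeq span of Hoxd3 and holds Mir10b. Its 53 CpGs averaged 34.9%, 29.7%, 38.5% and 34.9% in knockouts and 37.5%, 26.8%, 39.4% and 38.5% in controls. The group means were 34.5% ± 3.61 and 35.6% ± 5.90 and the groups overlapped. The other 1083 Hoxd CpGs averaged 4.38% ± 0.188 and 4.10% ± 0.207. The stretch and the rest are not matched for density, with a median of 14 and 40 listed CpGs in 500 bp. Autosomal CpGs with 10 to 19 CpGs in 500 bp averaged 61.4% over the mice, above the stretch. Those of Hoxd, some of them in the stretch, averaged 13.9%. Some 1 kb windows outside the stretch were also raised, such as those from 74701001 and 74747001, at 24.9% and 28.1% over the mice.

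Levels varied widely within this stretch. The 1 kb window from 74725001 was at 84.5% ± 3.85 in knockouts and 79.4% ± 14.0 in controls, and the window from 74728001 at 59.8% ± 7.27 and 60.0% ± 8.36. Between them the window from 74727001, with 24 CpGs, was at 6.46% ± 2.68 and 7.95% ± 2.38. The windows from 74721001 and 74726001 lay in between, at 48.9% and 46.8% over the mice. The longest run of Hoxd CpGs at 20% or more spanned 1220 bp, from 74728278 to 74729497, with 9 CpGs. The ninth CpG at 80% or more was a single isolated site at 74759519 in Haglr, at 99.5% over the mice.

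Hoxc had no such stretch. Its 45 CpGs at 20% or more were spread over 6 Hoxc genes, the noncoding genes Gm30528 and Hotair, and the DNA between genes. The longest Hoxc run at 20% or more held 3 CpGs over 109 bp within Hoxc4, at 31.6% ± 5.71 in knockouts and 42.5% ± 10.9 in controls. At the other extreme, the longest runs of CpGs under 5% were 1540 bp with 70 CpGs at Hoxd13 (1.11% ± 0.535 and 0.838% ± 0.310) and 1233 bp with 13 CpGs at the low-coordinate end of Hoxc6 (0.381% ± 0.681 and 0.320% ± 0.281).

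**Figure D3:**
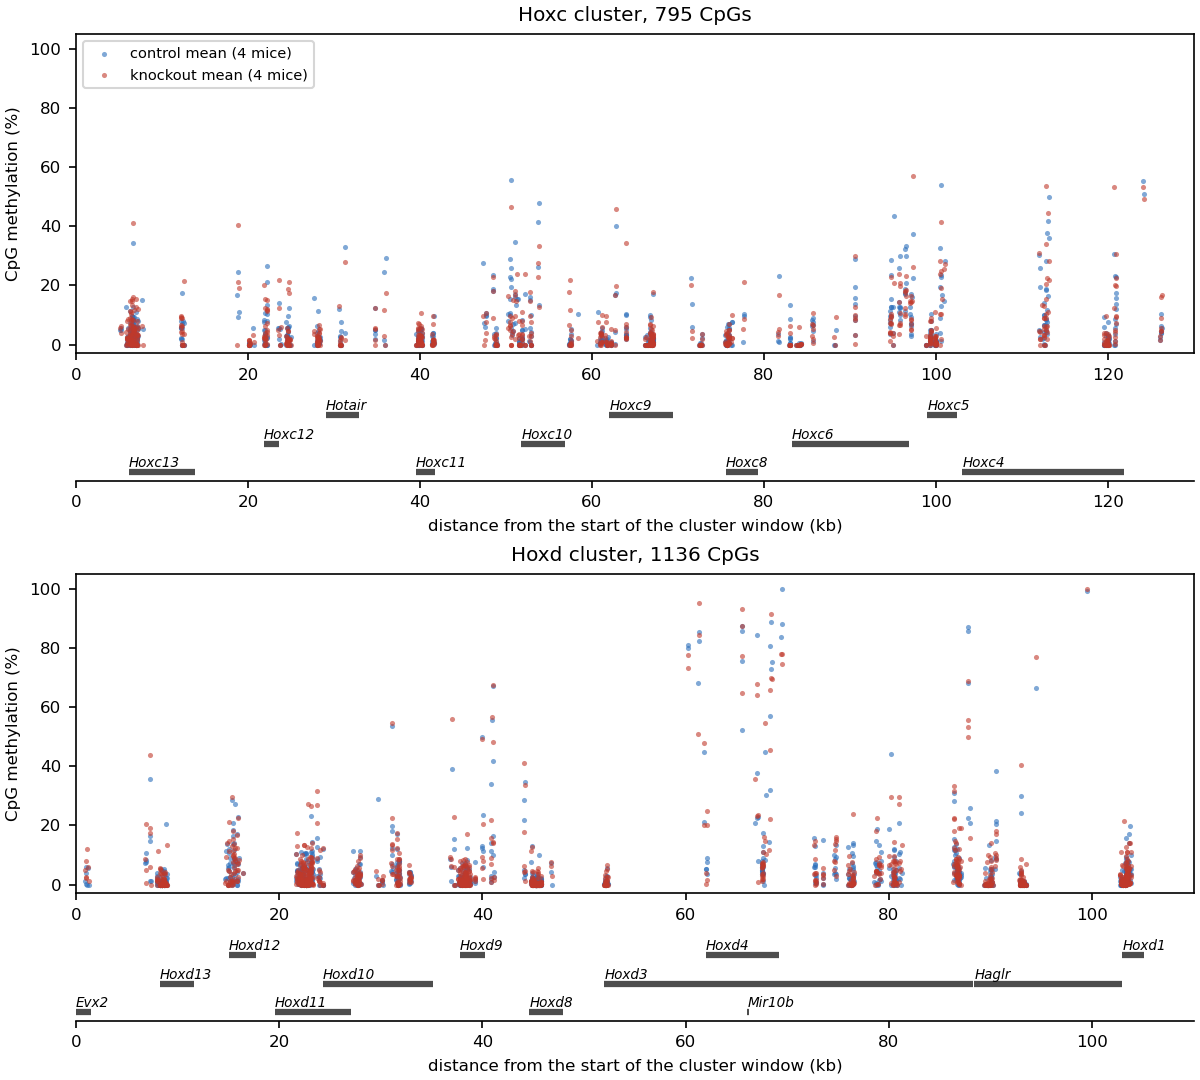
Methylation of each CpG (y axis, %) along Hoxc and Hoxd (x axis, distance from the start of the region in kb), as the control mean and the knockout mean, with the spans of the genes below. Most CpGs of both groups lie under 20%, and many of the high CpGs of Hoxd lie around Hoxd4 and Mir10b.

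Among the posterior genes, which act in the hindmost trunk and the limbs, windows were at low levels. Their means over the mice, from 1.99% at Hoxd13 to 8.16% at Hoxd12, lay above the median of 1.16% over all 23341 measured gene windows. A gene's window was 1000 bp on each side of its start where the RefSeq promoter table gives the strand, as for most Hoxd genes, and otherwise its whole span, as for most Hoxc genes, and the reads of its CpGs were added. Hoxc13 (103 CpGs) was at 4.995% ± 0.647 in knockouts and 4.16% ± 0.631 in controls, and Hoxd13 (78 CpGs) at 2.29% ± 0.607 and 1.70% ± 0.0931. Hoxd12 was higher, at 8.38%, 8.01%, 9.34% and 8.44% in knockouts and 8.55%, 5.07%, 7.94% and 9.53% in controls. Controls 34 and 36 lay below the knockouts at Hoxd12 and control 37 above them, so the groups overlapped. Hoxd11 ran from 3.29% to 4.57% over the mice with 151 CpGs at its second listed start, Hoxd9 from 1.87% to 2.95%, Hoxc11 from 1.41% to 3.04% and Hoxc9 from 2.71% to 5.14%. Hoxc10 and Hoxd10, paralogs of the lumbar region, stood above these neighbours, Hoxc10 at 7.37% ± 2.36 and 7.69% ± 0.801 and Hoxd10 at 7.99% ± 0.918 and 7.12% ± 1.20. Hoxc12 was at 6.17% ± 1.56 and 5.33% ± 1.69. Evx2 is a homeobox gene outside the Hox family that closes the Hoxd end of the array. Its start window was at 5.29% ± 2.35 and 5.74% ± 1.55, but the usable CpGs of this window all lay outside the region. The 7 usable Evx2 CpGs inside the region were at 4.57% ± 3.24 in knockouts and 2.595% ± 0.984 in controls, with overlapping groups.

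The central and anterior genes, which act in the trunk and neck, held both the lowest and the highest levels. Hoxd3 was at 1.09% ± 0.849 in knockouts and 0.534% ± 0.371 in controls, Hoxd8 at 1.64% ± 0.176 and 1.88% ± 0.560, and Hoxd1 at 3.54% ± 0.154 and 3.05% ± 0.313. Over their whole spans, Hoxc8 was at 3.03% ± 0.773 and 2.66% ± 0.401, and Hoxc5 at 5.15% ± 0.725 and 5.03% ± 1.41. Hoxc4 was at 1.46% ± 1.12 and 2.09% ± 0.467 in its start window. Over the whole Hoxc4 gene, 74 CpGs were at 9.77% ± 1.58 and 9.35% ± 0.734. Hoxd4 stood far above the rest. Its start window (10 CpGs) was at 35.9%, 47.5%, 41.4% and 39.1% in knockouts and 43.9%, 32.4%, 37.6% and 56.0% in controls, so that the controls held both the lowest and the highest mouse. Its 42 CpGs over the whole gene were at 17.9% ± 3.08 and 23.0% ± 6.59. The order from Hoxd3 to Hoxd8 to Hoxd13 was within the spread of the mice, whereas Hoxd4 did not overlap any other gene window in any mouse.

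**Figure D4:**
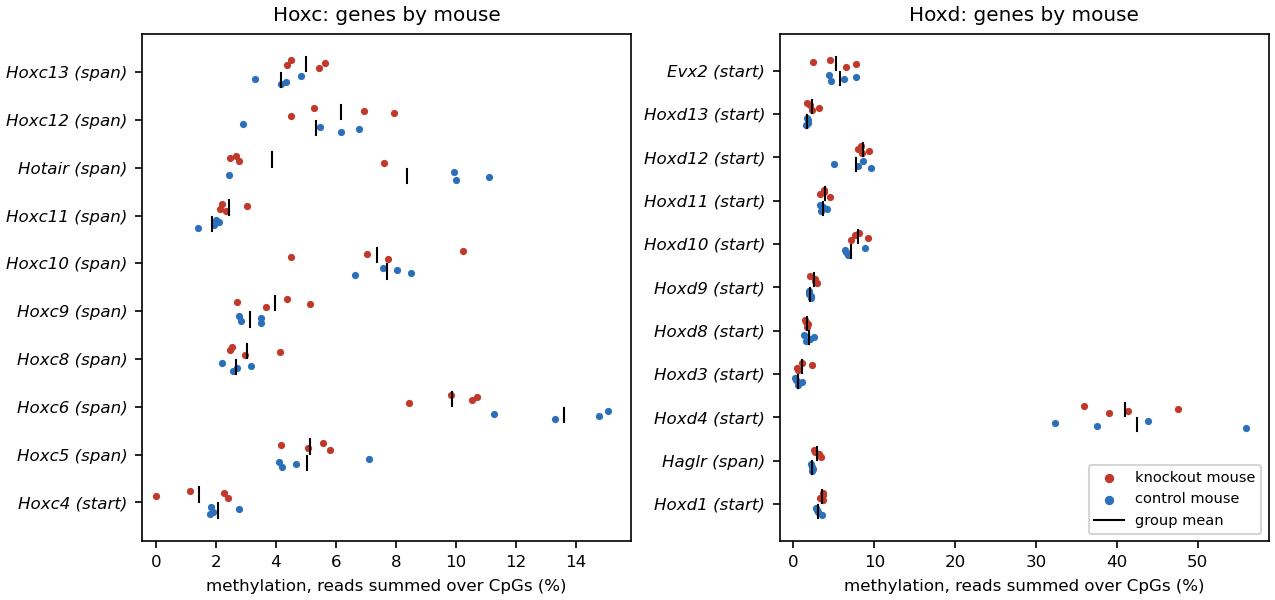
Methylation of gene windows (x axis, %, reads summed over CpGs) for each mouse at the genes of Hoxc and Hoxd, as the start window or the whole span, with bars at the group means. The knockouts lie from 8.45% to 10.7% and the controls from 11.3% to 15.1% at Hoxc6, and Hoxd4 is the only window above 20% in the plot.

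The noncoding genes of the clusters were mostly low. Hotair, a long RNA transcribed between Hoxc11 and Hoxc12, was at 2.67%, 2.48%, 2.76% and 7.61% in knockouts and 9.94%, 2.45%, 11.1% and 10% in controls over 12 CpGs. Knockout 46 and control 34 each lay near the other group at Hotair, so the groups overlapped, and the adjusted p was 0.956. Haglr, a long RNA beside Hoxd1, was at 2.51%, 2.67%, 3.13% and 3.38% in knockouts and 2.14%, 2.29%, 2.39% and 2.33% in controls over 110 CpGs. The groups did not overlap at Haglr, at means of 2.92% ± 0.404 and 2.29% ± 0.105, nor at Hoxc11, at 2.43% ± 0.419 and 1.87% ± 0.310. The differences were 0.638 points at Haglr and 0.561 points at Hoxc11. Both genes were below the 5% needed to enter the test. The share of all gene windows at such low levels without overlap was not computed, so no background stands beside them. The DNA within 500 bp of Mir615 was at 3.18% ± 1.29 and 2.87% ± 0.688 over 24 CpGs. At Mir196a-2 the single usable CpG nearby was at 3.05%, 0.331%, 0 and 5.77% in knockouts and 14.8%, 0, 14.9% and 12.2% in controls. At Mir10b the single CpG nearby was at 76.5%, 100%, 100% and 31.9% in knockouts and 91.9%, 29.6%, 93.3% and 86.7% in controls. The DNA around the gene for miR-615 was thus low in every mouse, while the genes for miR-196a and miR-10b had one site each to judge from, and that near Mir10b varied widely between mice of the same group.

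The comparison of genotypes asked whether loss of Atg12 changed methylation at these genes. Reads of each feature were compared by a quasi-binomial logistic model moderated with limma, adjusted by the Benjamini-Hochberg method over all autosomal features with a mean level from 5 to 95%. No CpG, 1 kb window or gene window of either cluster passed an adjusted p of 0.05. Of the 1931 CpGs, 551 were in the tested range, 256 in Hoxc and 295 in Hoxd, and 0 were called, against 0.00767% of all autosomal CpGs tested. Of the 551, 23 (4.17%) had an unadjusted p under 0.05, against 6.52% of all, 14 lower and 9 higher in the knockouts, where 4.12% and 2.4% of all CpGs were lower and higher. The groups did not overlap at 17 (3.09%) against 3.11% of all. The median difference was 0.341 percentage points over the 551 CpGs and -0.902 over all tested. Both shares were near the background or under it. Limma on log2 ratios called 0 with 16 at an unadjusted p under 0.05, and the model without moderation called 0 with 32. Over all 313039 autosomal CpGs tested, the numbers at an unadjusted p under 0.05 were 15727 with limma and 22521 without moderation.

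Over 1 kb windows, 104 had at least 3 CpGs and 50 were tested, with 0 called against 0.0% of all windows. Of the 50, 6 (12%) had an unadjusted p under 0.05, against 6.43% of all, 4 lower and 2 higher, where 4.4% and 2.02% of all windows were lower and higher. The groups did not overlap at 3 (6%), all in Hoxc, against 3.64%. The smallest adjusted p was 0.701, and 98% of the 50 windows differed by less than 10 points between the group means. The median difference was -0.242 points, against -0.376 over all windows tested. Limma on log2 ratios called 0 windows with 1 at an unadjusted p under 0.05, and the unmoderated model called 0 with 4. Over all 52709 windows tested, the numbers at an unadjusted p under 0.05 were 2456 with limma and 3305 with the unmoderated model.

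Of 29 gene windows with data, 10 were tested, 0 were called against 0.0% of all, and 1, Hoxc6, had an unadjusted p under 0.05, against 4.83% of all (3.66% lower and 1.17% higher in the knockouts). It was also the only tested gene window without overlap between the groups, against 3.18% of all. The 29 include the windows of Evx2, which was tested, and Gm30528, which was not, both with CpGs only outside the regions. Limma on log2 ratios called 0 with 0 at an unadjusted p under 0.05, and the unmoderated model called 0 with 1. Over all 7190 gene windows tested, the numbers at an unadjusted p under 0.05 were 309 and 387.

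Hoxc6 had the smallest unadjusted p among the tested gene windows of the clusters. Hoxc6 is a central gene that acts in the thorax, and its RefSeq span, chr15:102998226-103011882, held 61 usable CpGs. It was at 9.82%, 10.7%, 10.5% and 8.45% in knockouts and 15.1%, 11.3%, 14.8% and 13.3% in controls. Every knockout was below every control, with control 34 and knockout 28 closest to each other. The means were 9.88% ± 1.03 and 13.6% ± 1.75 (SD, n = 4 each), and the difference was -3.73 points with an adjusted p of 0.956 from the moderated model, so it did not pass the test. Over the alternatives the adjusted p ran from 0.0924, without control 34, to 0.9996. Leaving out control 34 changed the whole genome. Of all 7190 gene windows tested, 1065 were then lower in the knockouts at an unadjusted p under 0.05. With all mice this number was 263. Without control 34, 10 of all gene windows were called, so the move to smaller p was not particular to Hoxc6. With knockout 25 and control 34 both left out, the difference was -4.49 points and the adjusted p 0.138. In that setting 803 of all gene windows were lower in the knockouts at an unadjusted p under 0.05.

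The difference lay toward the high-coordinate end of Hoxc6. In the window chr15:103009001-103010000 the knockout mice were at 10.2%, 11.5%, 7.11% and 5.32%, and the control mice at 16.0%, 11.4%, 13.4% and 12.4%. In chr15:103010001-103011000 they were at 10.2%, 10%, 13.2% and 10.5% against 13.5%, 14.8%, 16.1% and 16.4%, without overlap. In chr15:103011001-103012000 they were at 17.6%, 20.8%, 19.8% and 8.35% against 25.5%, 22.2%, 25.9% and 21.7%, also without overlap, a difference of -7.19 points with an adjusted p of 0.701. Without knockout 46 this difference was -4.43 points. These were the 3 windows of Hoxc lower in the knockouts with the smallest p. The next window, from 103012001, was at 9.88% ± 6.18 in knockouts and 9.57% ± 2.86 in controls with overlapping groups. Within the last window of Hoxc6, the CpG at chr15:103011479 was at 23.7%, 22.7%, 17.5% and 9.50% against 40.3%, 29.4%, 35.99% and 27.3% (adjusted p = 0.731).

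**Figure D5:**
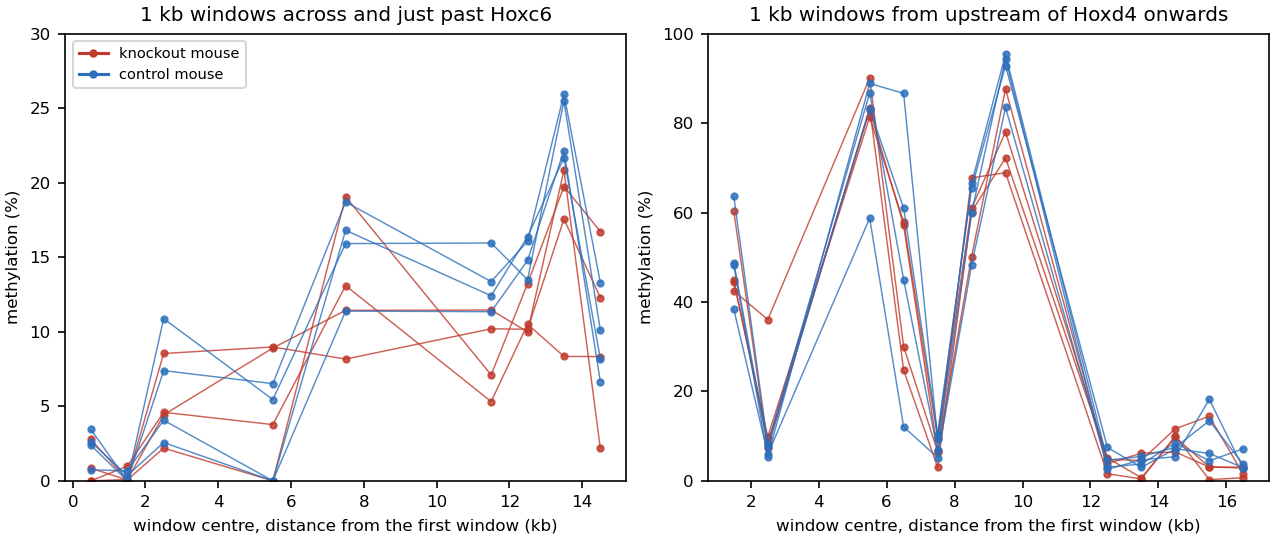
Methylation of 1 kb windows (y axis, %) in each mouse across Hoxc6 and from upstream of Hoxd4 onwards (x axis, kb from the start of the first window), with lines joining the measured windows of one mouse and windows without 3 usable CpGs skipped. Near the high-coordinate end of Hoxc6 the knockouts average 16.6% and the controls 23.8%, and the Hoxd windows range from levels under 10% to over 80%, with several in between.

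In Hoxd the window with the smallest p among those lower in the knockouts was chr2:74729001-74730000, past the end of Hoxd4. Its 3 CpGs were at 87.7%, 72.2%, 68.9% and 78.0% in knockouts and 92.9%, 83.5%, 95.4% and 94.4% in controls, so knockout 25 overlapped the controls (difference -14.9 points, adjusted p = 0.746). One of its sites, chr2:74729458, was at 100% in every control and at 95.5%, 88.7%, 49.6% and 77.6% in the knockouts, from 38 to 142 reads (adjusted p = 0.738). The difference of -22.1 points at this site was -12.7 points without knockout 45. The window upstream of Hoxd13, chr2:74667001-74668000, was the one higher in the knockouts with the smallest p, at 5.77%, 12.2%, 12.7% and 6.06% against 4.47%, 6.48%, 4.04% and 5.88% (adjusted p = 0.753). Knockouts 28 and 45 stood above the rest there, and the other knockouts lay within or near the range of the controls. In Hoxc the corresponding window was chr15:102977001-102978000 at the low-coordinate end of Hoxc9, at 7.17%, 4.99%, 12.6% and 13.4% against 3.86%, 7.41%, 5.05% and 6.84% (adjusted p = 0.746), again with overlap. Its difference of 3.75 points was 2.46 points without knockout 46.

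The single CpGs with the smallest p included sites read as 0 in most or all mice of one group and sites methylated in every mouse. At chr2:74762808 in Haglr the knockout mice were at 5.19%, 11.8%, 20.9% and 6.27%, and the control mice at 0.441%, 0, 0 and 0, from 124 to 424 reads (adjusted p = 0.738). At chr2:74682823 in Hoxd11 the knockouts with data were at 5.58%, 58.7% and 17.8% and each control was at 0, with knockout 45 left out for want of reads (adjusted p = 0.745). Its difference of 27.4 points was 11.7 points without knockout 28. At chr15:102933752, between Hoxc13 and Hoxc12, the knockout mice were all at 0, and the control mice at 19.1%, 9.80%, 38.5% and 0 (adjusted p = 0.723). Its difference of -16.8 points was -9.62 points without control 36. At chr2:74691101 in Hoxd10 every mouse was methylated, at 12.8%, 24.8%, 38.8% and 13.6% in knockouts and 3.21%, 17.6%, 10.02% and 8.63% in controls, with overlapping groups (adjusted p = 0.753). At chr2:74727583 in the span of Hoxd4 the values were 10.3%, 3.55%, 3.25% and 13.6% against 25.2%, 11.9%, 16.1% and 16.1%, so knockout 46 overlapped the controls (adjusted p = 0.738). These sites went in both directions and none passed.

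Partners and regulators of Hox genes mostly had windows with little methylation. Of the TALE homeodomain cofactors, which bind DNA together with Hox proteins, 9 of 9 genes were measured and 5 windows were under 5%, among them Meis1 at 0.265%, an essential factor of blood stem cells. The other 4 were tested, all 4 lower in the knockouts, and 0 were called. Of 21 Polycomb and trithorax genes, which keep Hox clusters silent or active, all 21 were measured in 25 windows, 22 were under 5%, and of the 3 tested, all lower in the knockouts, 0 were called. Ezh2, the main H3K27 methyltransferase, was at 0.150%, Bmi1 at 0.159% and Kmt2a at 0.155%. Over all measured windows, 14531 of 23341 were under 5%, and 4315 of 7190 tested were lower in the knockouts.

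The libraries differed in depth, in how well they covered methylated DNA and in sex chromosomes. Median reads per CpG of the clusters ran from 236 in knockout 28 to 373.5 in knockout 25. The ratio of mean reads at CpGs over 90% in all mice to that at CpGs under 5% in all mice was 0.434, 0.593, 0.637 and 0.577 in knockouts and 0.826, 0.366, 0.749 and 0.685 in controls. Control 34 and knockout 25 had the lowest ratios. Control 34 also had the lowest means in Hoxc, Hoxd, Hoxa and Hoxb and over all autosomal CpGs. Its part in the results was not tested beyond the values given without these mice. Of 10000 listed cytosines, 7.90 to 9.01 lay on the Y chromosome in knockouts and 1.16 to 1.83 in controls, so in every comparison of the groups the genotype and the sex-chromosome content of the mice cannot be told apart.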

How the data were processed

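ERRBS tables of 8 mice (4 knockout, 4 control) were analysed. The deposited tables give, per the file headers, the coverage of each cytosine as a count of reads, and the authors' methylation values as the percent of those reads with C or T. No listed cytosine had under 10 reads. CASAVA 1.8.2, Bismark and the mm10 build are named in the submitters' processing notes. Trimming, filters, duplicate handling and the bisulfite conversion rate are not given in the sources seen here. Per the labels, size selection was adapted to little DNA. Bisulfite conversion that fails leaves an unmethylated C read as methylated, so levels near 0 carry this background.

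Read numbers with C and with T were computed as coverage times percent, rounded, which gave whole reads within 0.05 for at least 99.96% of cytosines. Strands of a CpG were added. Features were CpGs, adjoining windows of 1 kb holding 3 or more CpGs, and gene windows, all on chromosomes 1 to 19. Genes and promoters came from RefSeq tables of GRCm38.p6, the mm10 build, and gene names were matched by symbol. With no genome and no exon table used here, exons, introns and untranslated regions are not reported. Features with a mean level from 5 to 95% were tested with a quasi-binomial logistic model on genotype, its overdispersion moderated with squeezeVar of limma 3.58.1 (R 4.3.3) and kept at 1 or more, with Benjamini-Hochberg adjustment at 0.05. The model was tested on simulated reads, with 100 features of each kind changed by 20 points and 100 by 40 points. At an adjusted p under 0.05 it recovered 0% and 3% of the changed CpGs. For 1 kb windows it recovered 26% and 66%, and for gene windows 54% and 85%. Among unchanged features, 8.55% of CpGs, 7.06% of windows and 5.74% of gene windows had an unadjusted p under 0.05. A mouse without 10 reads at a CpG was left out there. For CpG density, all CpGs in the surrounding 500 bp that any mouse's table lists were counted.

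All genes of the clusters could be named. Named CpGs and windows were those passing, the 3 with the smallest p in each direction in each cluster, and the 3 windows of largest range. Members and lists were chosen with earlier results of these data known. Alternatives were other coverage limits, tests, level ranges, window sizes and strands, and each mouse left out. Reads are not independent molecules.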

Additional observations from a re-analysis of the deposited data

Results flagged for a closer look

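In 10 of 95 groups of 4 mice, 1 mouse lay far from the other 3 (by Dixon's 95% critical value for the gap over the range). Chance gives about 1 in 20 for separate groups that were not picked by their values. Here some windows were picked for their range or their p, and some windows share CpGs. The rate of 1 in 20 is therefore no measure for the 10. Control 34 accounted for 4 of the 10. It was low in the Hoxd cluster mean, at 4.89% with the other controls from 5.73% to 5.90%, and in Hotair, at 2.45% with the others from 9.94% to 11.1%. Control 34 was also the lowest mouse in Hoxa, in Hoxb and over all autosomal CpGs, so its low Hoxd mean was not particular to Hoxd. It was high at the Hoxc4 start, at 2.79% with the others from 1.82% to 1.90%, and in the Haglr window chr2:74750001-74751000, at 5.61% with the others from 3.80% to 3.90%.

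Knockout 46 was high in Hotair, at 7.61% with the other knockouts from 2.48% to 2.76%. It was also high in the window chr15:102986001-102987000, at 29.2% with the others from 0 to 4.56%, where the lowest mouse had 60 reads. Knockout 45 was low at the Hoxd1 start, at 3.31% with the others from 3.6% to 3.65%, and high in the Hoxc6 window chr15:103010001-103011000, at 13.2% with the others from 10% to 10.5%. Control 1 was high at the Hoxd10 start, at 8.90% with the others from 6.32% to 6.73%. Control 37 was high in the window chr15:102950001-102951000, at 29.1% with the others from 7.23% to 10.2%.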

How the results depend on the processing

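No paired analysis was possible because the groups share no replicate numbers. No CpG, window or gene window of the clusters was called under any alternative run, with each mouse left out included, and the smallest adjusted p over these was 0.0924, at Hoxc6 without control 34. With control 34 left out, 10 of all 7190 gene windows tested were called, against 0 with all mice. Members at an unadjusted p under 0.05 ranged from 16 to 39 CpGs within the same tested range and rose to 108 of 1325 CpGs when levels from 1 to 99% were tested. Over all autosomal CpGs the number also rose, from 20411 of 313039 to 51866 of 583436 at levels from 1 to 99%. For windows they ranged from 1 of 50 (limma) to 12 of 97 (levels from 1 to 99%). The same settings gave 2456 of 52709 and 6095 of 90486 over all autosomal windows. Leaving out 1 mouse moved the cluster difference from -0.440 to 0.00292 points in Hoxc and from -0.0367 to 0.3004 in Hoxd, so neither sign held, and Hoxc was also at 0.0208 when CpGs weighed by reads. With knockout 25 and control 34 both left out, an alternative chosen after seeing the data, the Hoxd difference was -0.0433. Of 40 single CpGs, windows and gene windows, 32 kept their direction. The CpGs and most of the windows had been picked for a small p in that direction in these data. Their kept direction is therefore no measure of stability. Those that turned were gene windows and windows picked for their range. With those 2 mice left out, the direction turned for the window from 74725001 (-1.33 points), Hoxc5 (-0.321), Evx2 (0.459) and Hoxd12 (-0.0789). Leaving out 1 mouse turned Hoxc10 without knockout 45 (0.640) and the window from 74726001 without control 36 (3.10), and the differences ranged from -1.82 to 8.23 points for the window from 74725001, -21.8 to 3.10 for that from 74726001, -1.27 to 0.640 for Hoxc10, -0.177 to 0.821 for Hoxc5, -1.29 to 0.511 for Evx2, -1.59 to 0.502 for Gm31790, -0.133 to 1.36 for Hoxd12 and -4.84 to 3.04 for Hoxd4. The cause was not tested. With 4 mice a group even large differences at single CpGs can go uncalled (27.4 points at chr2:74682823 had an adjusted p of 0.745), so 0 calls do not show that the groups are alike, and the levels of CpGs with few reads are less exact.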
